A study of Homo sapiens with 6 samples.

Results

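The 26S proteasome genes and NFE2L1 were examined in LX-2, an established line of human hepatic stellate cells, the collagen-producing cells of the injured liver. Members were all genes whose symbol had the proteasome form (PSMA to PSMG followed by a number) with at least 10 counts in total, together with NFE2L1, NGLY1, DDI2, POMP and ADRM1. Of 16907 gene symbols in the files, 52 matched, and 51 of them passed the count minimum among 14853 genes tested. The member left out was PSMB11, a thymus subunit with 1 count in total. Members fell into 7 subunits of the 20S alpha ring, 7 constitutive 20S beta subunits, 3 inducible (immunoproteasome) beta subunits, 6 ATPases and 12 non-ATPase subunits of the 19S cap, 8 assembly factors, 5 activators or inhibitors, and NFE2L1 with its 2 processing enzymes.

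Small interfering RNA was present for 72 h at 20 nM, either a control sequence (siControl) or one against OGT (siOGT), the transferase that modifies proteins by O-GlcNAcylation. Each group comprised 3 libraries of polyadenylated RNA, described as biological replicates, and libraries with the same replicate number were treated as pairs. Cells of both groups grew in DMEM with serum, and all data came from a single cell line, so the replicates carry no variation between donors. RNA alone was measured, and neither subunit protein nor proteasome activity was part of these data.

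The proteasome degrades proteins that carry ubiquitin chains. Its 20S core is a barrel of alpha and beta rings whose proteolytic sites lie in the subunits PSMB5, PSMB6 and PSMB7, and its 19S cap binds, unfolds and threads the substrates. Cells exposed to interferon replace the proteolytic subunits by PSMB8, PSMB9 and PSMB10 and gain the PA28 activator, made of PSME1 and PSME2, which favours peptides for MHC class I. NFE2L1 is an endoplasmic reticulum transcription factor that is extracted, deglycosylated by NGLY1 and cut by DDI2 before it drives proteasome genes through antioxidant response elements.

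Libraries held 25996770 to 27966801 expected counts. OGT was at 177.2, 137.1 and 121.2 CPM (counts scaled by library total and by TMM factor) in siControl and at 39.95, 26.97 and 29.17 CPM in siOGT, so its level was below every siControl library in all siOGT libraries. Levels of the stellate and myofibroblast markers were uneven. COL1A1 was at 2214 to 3175 CPM in siControl and 1737 to 2423 CPM in siOGT, and VIM at 3027 to 3283 CPM in all libraries. ACTA2 (4.832 to 9.689 CPM) and RGS5 (4.765 to 6.228 CPM) were low in both groups. LRAT had 2 counts in all, and DES and HAND2 17 counts each. The hepatocyte gene ALB had 4 counts, the macrophage gene CD163 had 2 and the leukocyte gene PTPRC 85. Of 4 macrophage or leukocyte markers CD68 was called higher, at 122.7 to 153.8 CPM in siControl and 168 to 201.3 CPM in siOGT, and it made up most of the sum of the list, 130.7 to 162 CPM in siControl and 175.8 to 207.8 CPM in siOGT. Of 13 stellate markers 12 were tested, against a background of 12.7% of all genes called in each direction. PDGFRB, COL1A1, COL1A2, COL3A1 and THY1 were called lower and TAGLN higher. The groups overlapped in each of these genes, and the call of COL1A2 was lost with DESeq2 (adjusted p-value 0.1648). The sum of this list ran from 7194 to 8698 CPM in siControl and from 6412 to 7608 CPM in siOGT, most of it from COL1A1 and VIM. Of 4 endothelial markers VWF was called lower, though not with DESeq2 (adjusted p-value 0.06147), and the list summed to at most 7.857 CPM. No hepatocyte or epithelial marker was called, and these lists summed to at most 4.518 and 8.384 CPM. The part of these levels in the results below was not tested, and in bulk RNA fewer cells of one kind and less RNA per cell cannot be told apart.

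Upon OGT silencing, RNA of the inducible subunits PSMB9 and PSMB10, of both PA28 subunits, of NFE2L1 and of PSMA1 fell, and that of PSMB7 and PSMD12 rose. A gene was called where the edgeR adjusted p-value was at most 0.05. Of the 51 members 2 were called higher and 6 lower (15.7%), against 25.4% of all genes tested, and by direction 3.92% were higher and 11.8% lower, against 12.7% of all genes in each direction. The share of members called was not above that of all genes, and 43 were not called. Low-count genes are part of that background. Among the 9620 better expressed genes, whose level averaged 10 CPM or more, 32.5% were called, 16.3% higher and 16.2% lower. The median log2 fold change was -0.05 over the members and 0.01 over all genes tested. The 95% confidence intervals of the 43 members that were not called lay between -0.41 and 0.42 on the log2 scale. In 2 members every siOGT library was above every siControl library and in 7 every one was below, against 12.1% and 11.8% of all genes. All 3 pair ratios were above 0 in 11 members and below 0 in 16, against 27.4% and 26.6% of all genes.

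**Figure D1:**
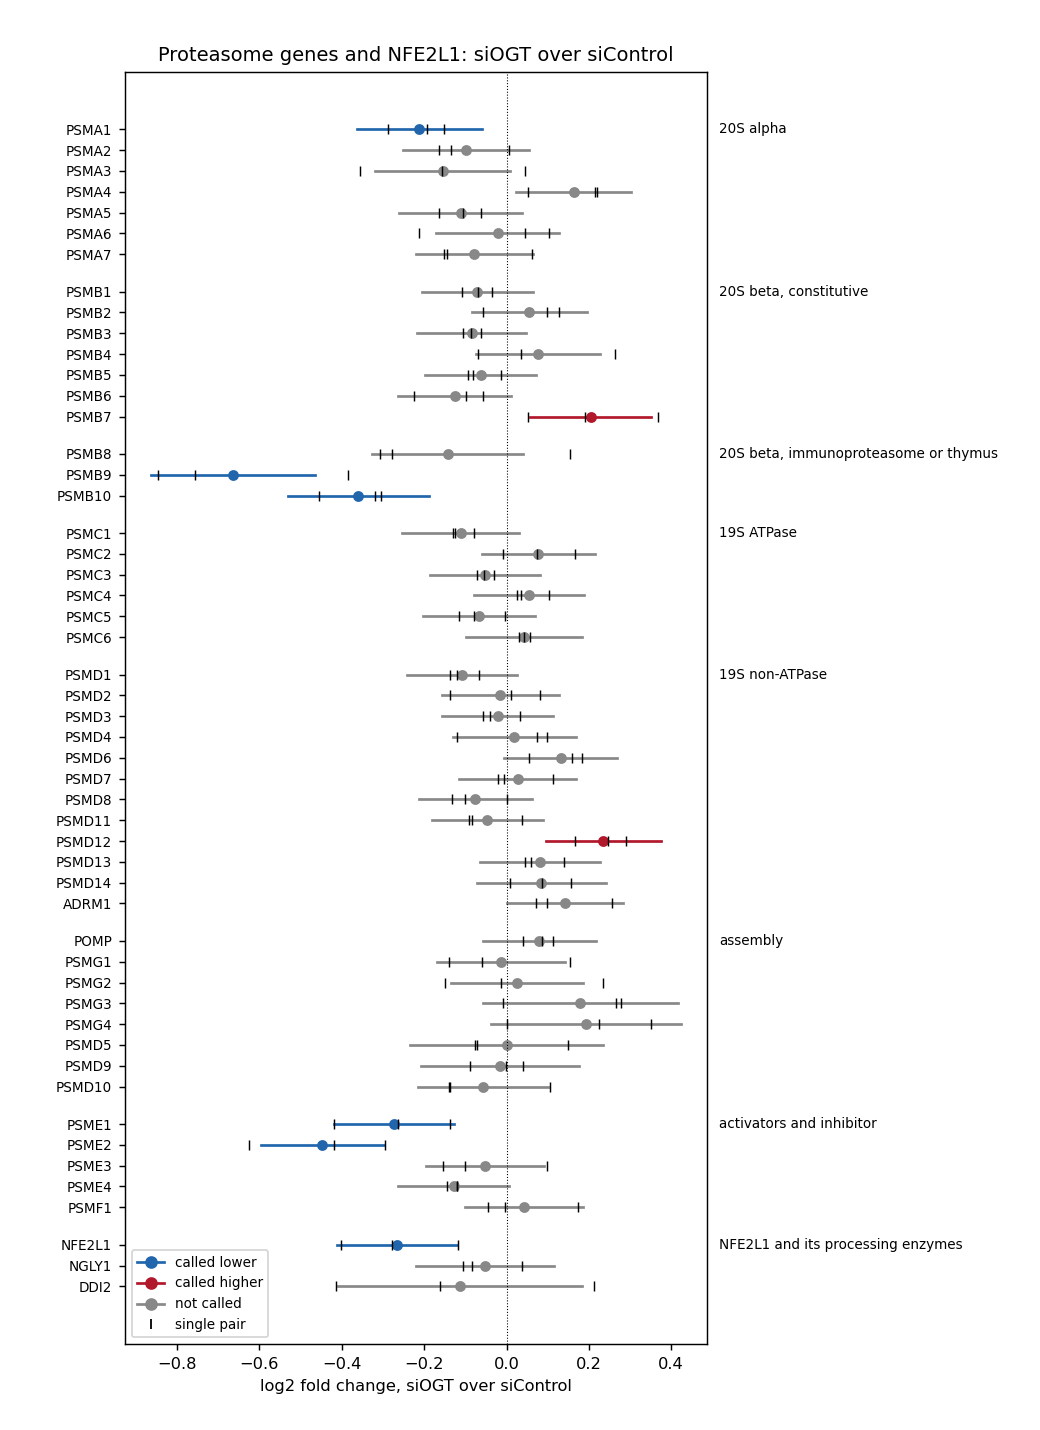
Log2 fold change of siOGT over siControl (horizontal axis) for the 51 members, grouped by role. Points are edgeR estimates, bars their 95% confidence intervals and ticks the log2 ratios of the 3 single pairs. The blue points with the largest shifts to the left are PSMB9 at -0.66 and PSME2 at -0.45, while most constitutive subunits lie near 0.

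The largest change among the members was that of PSMB9 (chromosome 6, 32844136 to 32859851, plus strand, hg38), the inducible counterpart of PSMB6. Its level was 28.5, 26.79 and 23.93 CPM in the siControl libraries and 15.81, 15.83 and 18.31 CPM in the siOGT libraries. Every siOGT library thus lay below every siControl library, and replicate 3 showed the smallest gap. PSMB9 fell by 36.9%, with a log2 fold change of -0.66 (SE 0.094, 95% confidence interval -0.86 to -0.47, edgeR adjusted p-value 7.85e-05). The log2 ratios of the 3 pairs were -0.85, -0.76 and -0.38. PSMB9 was the single member called under every alternative of the processing.

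PSMB10 (chromosome 16, 67934506 to 67936864, minus strand), the inducible counterpart of PSMB7, was at 23.53, 27.81 and 23.86 CPM in siControl and at 17.14, 22.52 and 19.1 CPM in siOGT. The groups did not overlap, although siOGT replicate 2 came close to the 2 lower siControl libraries. The log2 fold change was -0.36 (SE 0.082, edgeR adjusted p-value 0.003682), with -0.46, -0.30 and -0.32 in the pairs. Without replicate 1 the adjusted p-value was 0.05651.

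PSMB8 (chromosome 6, 32840717 to 32844679, minus strand), the inducible counterpart of PSMB5, behaved less evenly. It was at 39.88, 38.93 and 34.75 CPM in siControl and at 32.87, 31.47 and 38.68 CPM in siOGT. Replicates 1 and 2 were lower in siOGT and replicate 3 was higher, so the groups overlapped. The log2 fold change of -0.14 (95% confidence interval -0.33 to 0.04) was not called, with an edgeR adjusted p-value of 0.2556. Without replicate 3 it was -0.30, with an adjusted p-value of 0.01331. PSMB8 and PSMB9 lie next to each other on opposite strands and share 139 annotated exon bases, and reads were counted by strand.

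The activator PA28 is a ring of PSME1 (PA28 alpha) and PSME2 (PA28 beta), whose genes lie on chromosome 14 (24136163 to 24138967, plus strand, and 24143362 to 24147570, minus strand). PSME2 was at 136.7, 135.4 and 120.8 CPM in siControl and at 88.66, 101.2 and 98.35 CPM in siOGT. All siOGT values were below all siControl values. PSME2 fell by 26.6%, with a log2 change of -0.45 (SE 0.071, adjusted p-value 0.0002102 by edgeR) and pair ratios of -0.62, -0.42 and -0.30. PSME1 was at 90.6, 95.11 and 80.25 CPM in siControl and at 67.78, 79.25 and 72.95 CPM in siOGT, where the highest siOGT value came within about 1 CPM of the lowest siControl value. Its log2 fold change was -0.27 (SE 0.069, edgeR adjusted p-value 0.007838), and 0.1759 was the adjusted p-value without replicate 1.

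The other activators and the inhibitor were not called. PSME3, which forms the nuclear PA28 gamma ring, had a log2 fold change of -0.05 (95% confidence interval -0.20 to 0.09), and PSMF1, the inhibitor PI31, one of 0.04 (-0.10 to 0.19). PSME4, the nuclear activator PA200, was lower in all 3 pairs, with -0.12, -0.12 and -0.14, yet its groups overlapped and its edgeR adjusted p-value was 0.1569.

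Inducible subunits were next set against the constitutive subunits that they replace, as the counts of one in percent of the counts of the other in the same library. This ratio does not depend on library scaling. PSMB9 amounted to 31.8%, 29.8% and 24.1% of PSMB6 in siControl and to 20.6%, 18.8% and 19.2% in siOGT, that is 28.6% ± 4.0 and 19.5% ± 0.95 (SD, n = 3 each). PSMB10 amounted to 15.8%, 17.4% and 15.2% of PSMB7 in siControl and to 10.1%, 13.6% and 9.46% in siOGT. In both ratios every siOGT library was below every siControl library. PSMB9 and PSMB10 alone did not overlap between groups either, so these ratios are no separate result. PSMB7 was itself called higher, with pair ratios of 0.19, 0.05 and 0.37. Part of the fall of PSMB10 over PSMB7 therefore lies in the denominator. PSMB8 amounted to 45.1%, 45.6% and 37.2% of PSMB5 in siControl and to 39.3%, 37.2% and 44.2% in siOGT, which overlapped. For the activators PSME3 served only as a reference, since it forms a ring of its own and is not a counterpart that is replaced. PSME1 amounted to 43.5%, 50% and 42.6% of PSME3 in siControl and to 34.9%, 46.3% and 36.2% in siOGT, which overlapped. PSME2 amounted to 65.7%, 71.2% and 64.1% of PSME3 in siControl and to 45.7%, 59.2% and 48.8% in siOGT, without overlap. No gene length enters these percentages, so they describe a change between groups and not how many of the proteasomes carry an inducible subunit. No test was made of these ratios.

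**Figure D2:**
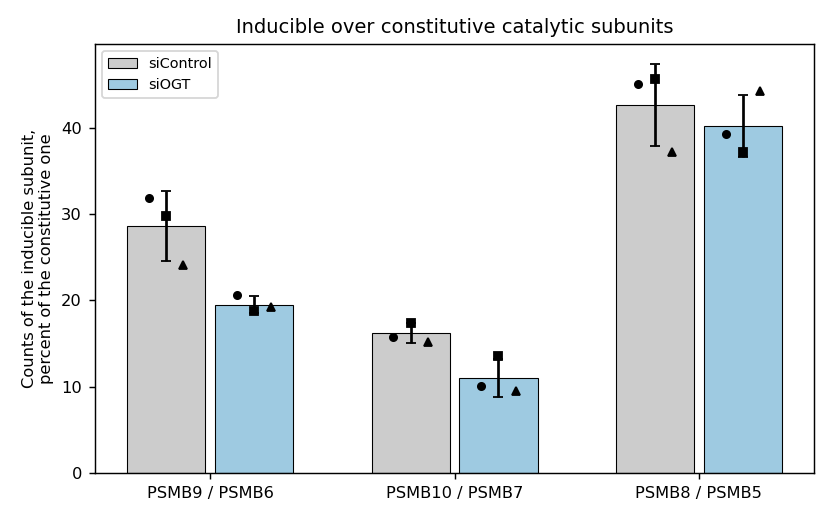
Counts of each inducible catalytic subunit as percent of its constitutive counterpart (vertical axis, from 0). Bars are means of 3 libraries, error bars SD, and circles, squares and triangles replicates 1, 2 and 3. The PSMB9 ratio lay between 18.8% and 20.6% in siOGT, below the 24.1% to 31.8% of siControl, while the PSMB8 ratios overlapped.

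The promoters of the members were then searched for the core of the interferon-stimulated response element (GAAA, any 2 bases and GAAA again, on both strands), since interferon is the known inducer of these subunits. Promoters were RefSeq sequences on GRCh38.p14, from 250 bases before to 50 bases after the first listed start of each gene, and were available for 45 of the tested members. The motif was found in 7 of them (15.6%), against 3.65% of 27305 promoters. This motif, like the others below, was chosen after values were seen, and the 27305 promoters include genes that were not tested. The genes with a match were PSMB10, PSME1 and PSME2, which were called lower, and PSMA4, PSMB4, PSMG4 and NGLY1, which were not called. Over all genes tested 12.7% were called in each direction. Whether the motif goes with the calls was not tested. The windows below show the match in capitals with 10 bases on each side, 5′ to 3′ along the gene. They are shown because 3 genes that fell carry the same core close to the start on one strand or the other, and PSMG4, which was not called, carries it as well.
PSMB10 (chr16:67936852-67936881, minus strand): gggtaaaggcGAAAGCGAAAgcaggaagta
PSME2 (chr14:24146619-24146648, minus strand): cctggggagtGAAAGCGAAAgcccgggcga
PSME1 (chr14:24136189-24136218, plus strand): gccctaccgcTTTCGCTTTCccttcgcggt
PSMG4 (chr6:3258904-3258933, plus strand): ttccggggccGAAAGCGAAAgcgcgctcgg
PSMB4 (chr1:151399495-151399524, plus strand): tcgtctacagGAAAAAGAAAgaaatgacac

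PSMB10 and PSME2 held the letters GAAAGCGAAA, 21 to 12 and 28 to 19 bases before the start, and PSME1 held the reverse complement 6 to 15 bases into the transcript. PSMG4 held GAAAGCGAAA 33 to 24 bases before its start, and its log2 fold change was 0.19 (95% confidence interval -0.04 to 0.42). PSMB4, a structural beta subunit, held GAAAAAGAAA and had a log2 fold change of 0.08 (-0.07 to 0.23). The PSMB9 window held no match. PSMB9 and its neighbour TAP1, a subunit of the peptide transporter, are read in opposite directions from starts 488 bases apart. A match in the TAP1 promoter lay 354 bases from the PSMB9 start, outside the window searched. A neighbour's promoter was examined in this way for PSMB9 alone, and no share over all promoters was taken at that distance.
TAP1 (chr6:32853819-32853848, minus strand): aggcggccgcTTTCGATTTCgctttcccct
TAP2 (chr6:32838778-32838807, minus strand): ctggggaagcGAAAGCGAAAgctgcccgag
Among 36 genes of the related lists with a promoter the motif was found in 5 (13.9%). TAP1, TAP2 and TAPBP were called lower and B2M and ERAP1 were not called, against 12.7% of all genes called in each direction. A match describes these letters and not a bound site. A second interferon motif, the gamma-activated site (TTCNNNGAA), was found in 4 of the 45 promoters (8.89%), against 7.88% of all promoters. These were PSMA2, PSMC4, PSMD3 and PSME3, and none of these 4 genes was called, against 25.4% of all genes tested.

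NFE2L1 (chromosome 17, 48048329 to 48061545, plus strand) was at 303, 294.1 and 275.7 CPM in siControl and at 250, 270.9 and 208.6 CPM in siOGT. All siOGT values were below all siControl values, with the smallest gap in replicate 2 and the largest in replicate 3. NFE2L1 fell by 16.8%, with a log2 fold change of -0.27 (SE 0.069, 95% confidence interval -0.41 to -0.12, edgeR adjusted p-value 0.009238) and pair ratios of -0.28, -0.12 and -0.40. The adjusted p-value was 0.1045 without replicate 1 and 0.2449 without the replicate block.

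The processing enzymes of NFE2L1 were not called. NGLY1, the N-glycanase that edits NFE2L1 after its extraction, was at 24.46, 22.67 and 25.12 CPM in siControl and at 23.06, 23.26 and 23.35 CPM in siOGT, with a log2 fold change of -0.05 (95% confidence interval -0.22 to 0.12). DDI2, the protease that cuts NFE2L1, was at 7.631, 5.578 and 7.524 CPM in siControl and at 8.848, 4.979 and 5.632 CPM in siOGT. It was higher in replicate 1 and lower in the other two, giving -0.11 with a wide interval of -0.41 to 0.18. DDI2 is uncertain, because it shares 2197 exon bases on the same strand with RSC1A1 and its estimated counts were fractional in all 6 libraries. Expressed per kilobase of annotated exon, NFE2L1 was at 49.46 CPM per kb in siControl, NGLY1 at 2.795 and DDI2 at 0.5675.

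**Figure D3:**
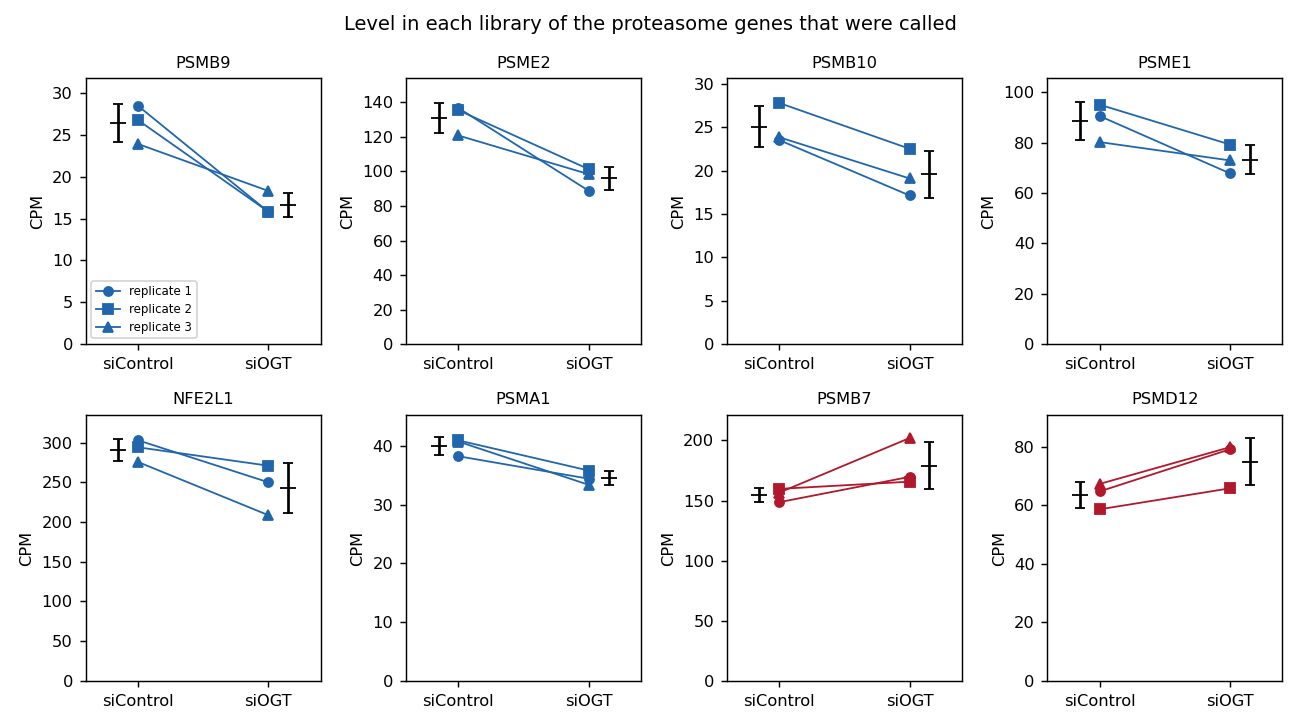
Level in CPM (vertical axes, from 0) of the 8 called members in siControl and siOGT. Each line joins the libraries of one replicate number and the bars beside the points are the mean and SD of 3 libraries. All pairs fell for PSMB9, PSME2, PSMB10, PSME1, NFE2L1 and PSMA1, and all rose for PSMB7 and PSMD12, where the PSMD12 groups overlap.

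The constitutive 20S and 19S subunits, through which the standard proteasome is built, gave few calls. Of these 32 genes 2 were called higher (6.25%) and 1 lower (3.12%), against 12.7% of all genes tested in each direction, and 29 were not called. Their median log2 fold change was -0.02. Together they took 3539.1, 3538.4 and 3781.9 CPM in siControl and 3590.1, 3497.2 and 3802.9 CPM in siOGT, so that the siOGT sum was 1.014, 0.9883 and 1.006 times the siControl sum in the pairs. The means, 3620 ± 140.4 and 3630 ± 156.7 CPM (SD, n = 3 each), differed by less than the spread between libraries. The log2 fold changes of the 29 genes that were not called lay between -0.16 and 0.16 and their confidence intervals between -0.32 and 0.30. By comparison, the 3 inducible subunits together took 91.91, 93.534 and 82.547 CPM in siControl and 65.823, 69.815 and 76.085 CPM in siOGT, with no overlap.

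In the 20S alpha ring, which gates entry to the barrel, 1 of 7 genes (14.3%) was called, against 25.4% of all genes tested. PSMA1 was at 38.27, 40.97 and 40.77 CPM in siControl and at 34.43, 35.82 and 33.38 CPM in siOGT, without overlap. Its log2 fold change was -0.21 (SE 0.072, edgeR adjusted p-value 0.0382), and the call was lost with DESeq2 (0.1291) and without any 1 of the 3 replicates (0.08498 to 0.1128). PSMA4 stood opposite to it, at 97.04, 90.82 and 93.15 CPM in siControl and 100.5, 105.5 and 108.6 CPM in siOGT. Its groups did not overlap either, but its log2 fold change of 0.16 (95% confidence interval 0.02 to 0.30) had an edgeR adjusted p-value of 0.07982 and was not called. PSMA7 was the alpha subunit with the highest RNA level per length, at 76.38 ± 2.568 CPM per kb in siControl (SD, n = 3), and PSMA2 the one with the lowest, at 4.687 ± 0.2506.

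Among the 7 constitutive beta subunits 1 (14.3%) was called, against 25.4% of all genes tested, namely PSMB7, which carries the trypsin-like site. It was at 148.6, 159.7 and 156.5 CPM in siControl and at 169.7, 165.7 and 202 CPM in siOGT. The siOGT libraries were all above the siControl ones, replicate 3 by far the most. The log2 fold change was 0.20 (SE 0.070, edgeR adjusted p-value 0.04017). It was 0.12 without replicate 3, with an adjusted p-value of 0.2046, and the DESeq2 adjusted p-value was 0.06062. PSMB6, which carries the caspase-like site, had -0.13 (95% confidence interval -0.26 to 0.01), and PSMB5, which carries the chymotrypsin-like site, had -0.06 (-0.20 to 0.07). Levels per length were closer together than in the alpha ring, from 42.17 CPM per kb for PSMB1 to 94.07 for PSMB3, a 2.23-fold range against 16.3-fold for the alpha subunits. With the longest annotated transcript as the length, these ranges were 3.59-fold and 17.9-fold, and PSMB7 and PSMB4 were the highest and lowest beta subunits. Before division by length, siControl means ran from 39.27 CPM (PSMA2) to 133.8 CPM (PSMA7) in the alpha ring. The beta subunits ran from 89.08 CPM (PSMB5) to 194.2 CPM (PSMB2). PSMA2 was divided by 8378 exon bases and PSMA7 by 1752, so the alpha range depends strongly on annotated length.

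None of the 6 base-ring ATPases of the 19S cap was called, against 25.4% of all genes by edgeR and 16.3% by DESeq2. None of these ATPases reached an unadjusted edgeR p of 0.05 either. Their log2 fold changes ran from -0.11 for PSMC1 to 0.08 for PSMC2, and their confidence intervals lay between -0.25 and 0.21. PSMC2 shares 112 exon bases on the same strand with PMPCB and had fractional counts in 3 libraries. PSMC3 was the most abundant per length, at 49.95 CPM per kb in siControl.

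Of the 12 non-ATPase genes of the cap 1 (8.33%) was called, against 25.4% of all genes tested, namely PSMD12, a lid subunit. It was at 64.71, 58.61 and 67.28 CPM in siControl and at 79.15, 65.8 and 79.85 CPM in siOGT. Replicate 2 was the lowest library of each group, and its siOGT value lay below that of siControl replicate 3, so the groups overlapped although all 3 pairs rose by 0.29, 0.17 and 0.25. The log2 fold change was 0.24 (SE 0.066, edgeR adjusted p-value 0.01418), and 0.1634 was the adjusted p-value without replicate 1. PSMD1, a scaffold of the base, lay below every siControl library in all siOGT libraries, with 152.9, 149.4 and 153.7 against 139.1, 137.4 and 146.6 CPM. Its log2 fold change of -0.11 (95% confidence interval -0.24 to 0.03) was not called.

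ADRM1, the ubiquitin receptor RPN13, was at 242.7, 260.6 and 290.8 CPM in siControl and at 290, 273.7 and 311.3 CPM in siOGT. The pair ratios were 0.26, 0.07 and 0.10, but the groups overlapped, and the log2 fold change of 0.14 (SE 0.067) had an edgeR adjusted p-value of 0.1312. It was the non-ATPase gene with the highest level per length in siControl, at 123.6 ± 11.36 CPM per kb (SD, n = 3).

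Of the 8 assembly factors none was called, against 25.4% of all genes by edgeR and 16.3% by DESeq2. None of these factors reached an unadjusted edgeR p of 0.05 either. POMP, the chaperone that guides the closure of the 20S barrel, was at 65.39, 60.3 and 64.96 CPM in siControl and at 67.23, 64.02 and 70.19 CPM in siOGT, with a log2 fold change of 0.08 (95% confidence interval -0.06 to 0.22). PSMG4, a chaperone of the alpha ring, had the highest value of the group at 0.19, and PSMD10 (gankyrin), a chaperone of the cap, the lowest at -0.06. PSMG3 and PSMG4, with 1523 and 1682 counts in total, had wider intervals, which reached 0.42 on the log2 scale.

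Since NFE2L1 acts through antioxidant response elements, the promoters were also searched for the core TGACNNNGC on both strands. It was found in 14 of 45 members (31.1%), against 13.6% of all promoters. Of the 14 genes PSMB9, PSME1 and PSME2 were called lower, PSMD12 was called higher and 10 were not called, among them PSMD3 and ADRM1. Over all genes tested 25.4% were called, 12.7% in each direction. In no member did matches of different motifs overlap. The windows are shown because genes with this core were found in each class of result.
PSMD12 (chr17:67366724-67366752, minus strand): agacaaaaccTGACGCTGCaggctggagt
PSMB9 (chr6:32854034-32854062, plus strand): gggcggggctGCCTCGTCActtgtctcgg
PSMD3 (chr17:39980760-39980788, plus strand): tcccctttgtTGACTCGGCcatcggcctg
ADRM1 (chr20:62302749-62302777, plus strand): cgctcccctaTGACACAGCaacaataggg

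PSMD3, a scaffold of the lid, was at 265.5, 265.2 and 280.4 CPM in siControl and at 271.4, 257.7 and 269.7 CPM in siOGT, with a log2 fold change of -0.02 (95% confidence interval -0.16 to 0.11). A CCAAT box, the letters CCAAT on either strand, was found in 20 of 45 members (44.4%), against 35.7% of all promoters. PSMB9 and NFE2L1 were the called genes among the 20, both lower, against 12.7% of all genes called in each direction.

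Genes that act with the proteasome were described by 4 lists. Of 47 listed genes 46 were tested, and 8 were called higher (17.4%) and 13 lower (28.3%), against 12.7% of all genes in each direction. Among the 9620 better expressed genes (10 CPM or more on average) 16.3% were called higher and 16.2% lower. The share of listed genes called higher was thus near that background, and the share called lower was above it. Of the 13 genes called lower 9 were in the MHC class I list. The lists were chosen with earlier results of these data known. The list with the largest share of calls was MHC class I antigen processing, for which the proteasome supplies peptides. Of its 12 genes 9 were called lower and 0 higher by both edgeR and DESeq2 (0 higher also at an unadjusted p of 0.05), and the median log2 fold change was -0.31, against 0.01 over all genes. Those called lower included the peptide transporter subunits TAP1 (-0.48, edgeR adjusted p-value 7.182e-05) and TAP2 (-0.36, adjusted p-value 0.0006972), the loading factor TAPBP (-0.31), the peptidase ERAP2 (-0.31), the heavy chains HLA-C (-0.33) and HLA-B (-0.21), and the regulator NLRC5.

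NLRC5, the transactivator of MHC class I genes, was at 73.43, 78.25 and 58.69 CPM in siControl and at 51.35, 57.11 and 41.06 CPM in siOGT. The groups did not overlap, and the log2 fold change was -0.49 (SE 0.066, edgeR adjusted p-value 4.48e-05), with -0.52, -0.45 and -0.51 in the pairs. B2M, the light chain (-0.11), ERAP1 (0.12) and IRF1 (-0.21, edgeR adjusted p-value 0.05341) were not called. Reads of HLA-B, HLA-C, TAPBP and IRF1 were divided between genes in all libraries, which makes their values uncertain. Those of ERAP2 were divided in 4 libraries and those of ERAP1 in 2. The groups of ERAP2 and of TAP2 overlapped, although all 3 pairs fell in each. Without replicate 1 the calls of TAPBP (adjusted p-value 0.06364), HLA-C (0.128) and HLA-B (0.4581, with a log2 fold change of -0.14) were lost, and that of HLA-B also without replicate 2 (0.07926) and with library totals (0.06092).

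**Figure D4:**
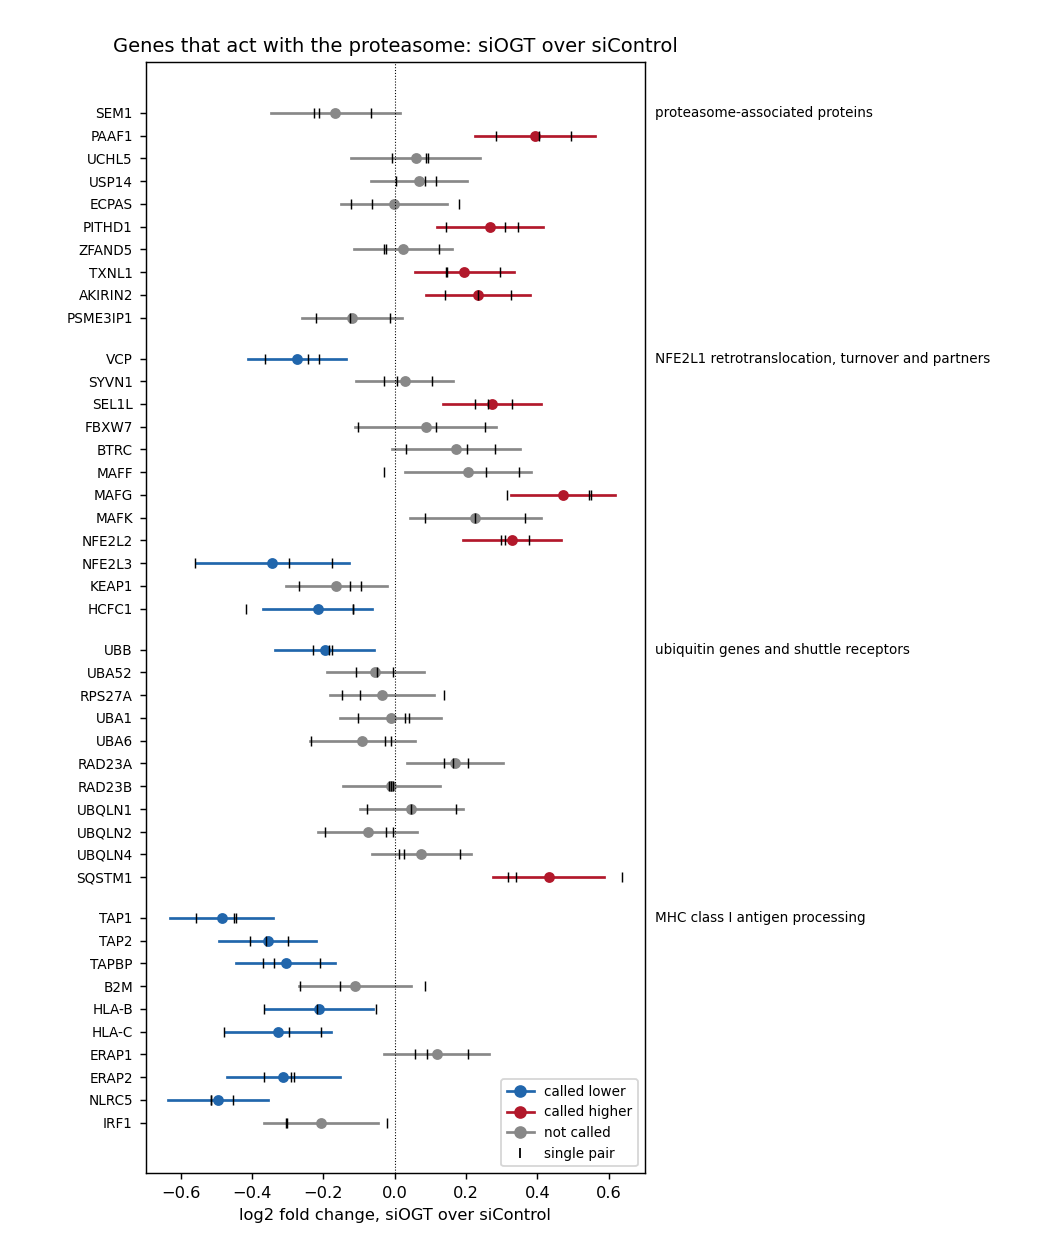
Log2 fold change of siOGT over siControl (horizontal axis) for 43 of the genes that act with the proteasome, in 4 lists. Points are edgeR estimates, bars 95% confidence intervals and ticks the 3 pairs. In the MHC class I list 7 of the 10 points shown are blue (called lower), and 4 of 10 proteasome-associated genes are red (called higher).

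Of 10 proteasome-associated genes 4 were called higher and 0 lower (DESeq2 called 2 higher and 0 lower, and 0 were lower at an unadjusted p of 0.05). The background was 12.7% of all genes in each direction by edgeR, and 7.52% higher and 8.74% lower by DESeq2, so that 0 of 10 lower is near the background. PAAF1, a factor that binds the cap ATPases, was at 24.61, 18.78 and 21.5 CPM in siControl and at 29.99, 26.45 and 28.49 CPM in siOGT. Its groups did not overlap, and the log2 fold change was 0.39 (SE 0.080, edgeR adjusted p-value 0.001709). The others were PITHD1 (0.27), AKIRIN2 (0.23), which carries proteasomes into the nucleus, and TXNL1 (0.19), a thioredoxin-like protein of the cap. The calls of AKIRIN2 (0.06685) and TXNL1 (0.09246) were lost with DESeq2, and those of PITHD1 (0.1323), AKIRIN2 (0.1235) and TXNL1 (0.3521) without replicate 1, where the values are adjusted p-values. Without replicate 3 AKIRIN2 had 0.0844, and without replicate 2 TXNL1 had 0.063. The deubiquitinases USP14 (0.07) and UCHL5 (0.06) were not called.

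Genes of NFE2L1 extraction and turnover, its partners and its relatives went both ways. Of these 12 genes 3 were called higher and 3 lower (25% each), against 12.7% of all genes in each direction. MAFG, a small MAF protein that binds DNA together with NFE2L1, was at 89.82, 66.39 and 77.71 CPM in siControl and at 131, 82.56 and 113.8 CPM in siOGT, where all pairs rose but the groups overlapped. Its log2 fold change was 0.47 (SE 0.069, edgeR adjusted p-value 9.712e-05). NFE2L2, the related antioxidant factor, rose by 0.33 on the log2 scale (SE 0.065, edgeR adjusted p-value 0.001333), and NFE2L3, another relative, had -0.34 (SE 0.102, adjusted p-value 0.0196). SEL1L, of the ubiquitin ligase complex in the endoplasmic reticulum membrane, had 0.27 (adjusted p-value 0.005391). VCP, the segregase that extracts NFE2L1, had -0.27 (adjusted p-value 0.005299), and HCFC1, a cofactor known as a substrate of OGT, had -0.22 (adjusted p-value 0.03671). Of these calls NFE2L3 was lost with DESeq2 (adjusted p-value 0.1019) and without replicate 3 (-0.24, adjusted p-value 0.1297), and VCP without replicate 1 (adjusted p-value 0.06101). HCFC1 had -0.12 without replicate 3 (adjusted p-value 0.1672), and its call was also lost without replicate 1 (0.1093) and with library totals (0.05926).

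Among 12 ubiquitin genes and shuttle receptors 1 was called in each direction (8.33%), against 12.7% of all genes. SQSTM1, the autophagy receptor p62, was at 496.5, 420.5 and 577.5 CPM in siControl and at 772.2, 524.1 and 730.4 CPM in siOGT, which is a log2 change of 0.43 (SE 0.074, adjusted p-value 0.0004252 by edgeR). All pairs rose, and siOGT replicate 2 lay within the siControl range. UBB, a polyubiquitin gene, was at 897.3, 832.2 and 853.7 CPM in siControl and at 766.1, 732.4 and 755.4 CPM in siOGT. Its log2 fold change was -0.20 (SE 0.066, edgeR adjusted p-value 0.03545) without overlap between groups. Its adjusted p-value was 0.2954 without replicate 1, 0.09379 without replicate 2 and 0.05475 with library totals.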

How the data were processed

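RNA was sequenced from 3 siControl and 3 siOGT libraries of LX-2 cells, stranded and oligo-dT enriched. Per the study's methods, reads were aligned to hg38 with Bowtie2 2.3.5.1 and counted by strand with RSEM 1.3.1. The values the authors deposited are expected counts, that is estimated counts per gene and library that were not normalized. Reads matching several genes are divided, so values of genes with near-identical copies are uncertain, but 48 of the 51 members had whole numbers in all libraries. A deposited table of the authors' own comparison (mean, fold change, adjusted p-value) was not used.

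Expected counts were rounded, genes with a total below 10 were removed and libraries were scaled by TMM (factors 0.979 to 1.02). A quasi-likelihood fit in edgeR 4.0.16 (R 4.3.3), blocked on replicate number, gave two-sided F tests for the 14853 genes left, with Benjamini-Hochberg adjustment over all of them. The block follows the study's methods, which paired samples of one replicate, and the deviations of same-numbered libraries correlated by 0.688, 0.525 and 0.332 over 12373 genes. The study's methods describe the replicates as independent experiments. Pair ratios use a prior count of 2, and SE and confidence intervals come from the F statistic.

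Members and gene lists were chosen with earlier results of these data known. The named genes were the called members, NFE2L1, NGLY1, DDI2, POMP and ADRM1, the extremes of fold change and the highest level per kb of each group, and the called genes of the related lists. Any other named gene (such as PSMD3, PSMB4, PSMB5, USP14 or B2M), the motifs and the ratios between subunits were chosen after values were seen. Coordinates, exon overlaps and lengths are from GENCODE 44, which may differ from the gene models behind the counts. PSMA8 and DDI1 were not matched to a symbol in the files, and PSME3IP1 was matched by its older symbol. The promoters of PSMA7, PSMB1, PSMB6, PSMB7, PSMD4 and PSMG3 were not analysed here, and 3 genes of the related lists, which stay in the counts, are not reported here. Alternatives were DESeq2 1.42.0, fits without the block, other scalings and filters, and leaving out each replicate.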

Additional observations from a re-analysis of the deposited data

How the results depend on the processing

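Of the 8 called members, PSMB9 alone was called under every alternative, and no member that was called changed direction under any of them. Without the replicate block edgeR called 0 members higher (0 at an unadjusted p of 0.05) and 1 lower (PSMB9), and 0 of the pathway genes in the 4 lists (16 at an unadjusted p of 0.05), with NFE2L1 at -0.26 (adjusted p-value 0.2449). Over all genes that fit called 0.875%. DESeq2 without the block, an alternative chosen after seeing the data, called 0 higher, 2 lower (PSMB9 and PSME2) and 4 pathway genes, with NFE2L1 at -0.26 (adjusted p-value 0.1923), against 5.72% of all genes. DESeq2 with the block called 1 higher (PSMD12) and 5 lower, all of them called by edgeR. Over all genes it called 7.52% higher and 8.74% lower. When a replicate was left out, the members called ranged from 0 to 2 higher and from 2 to 7 lower, the pathway genes from 12 to 22, and the log2 fold change of NFE2L1 from -0.34 to -0.20. The lowest counts were without replicate 1, which left PSMB9 and PSME2, against 12.5% of all genes. Over all genes 22.5% were called without replicate 2 and 23.8% without replicate 3. Scaling by library totals alone called 3 members higher, PSMA4 in addition, and 5 lower, and moved the median of all genes from 0.01 to 0.03. Over all genes it called 2113 higher and 1614 lower, against 1885 and 1881. Median-ratio size factors, filterByExpr and no filter kept all 8 calls, against 24.9%, 27.9% and 24.2% of all genes called. With 3 pairs, a member that was not called may have changed by any value inside its confidence interval. The causes of these shifts were not tested.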
